A study of Mus musculus with 4 samples.

Results

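The nucleolar ribosome biogenesis genes are 43 genes that encode proteins of the nucleolus, the part of the nucleus where ribosomes are made. They were selected on measured values of these data: Utp20 and Mdn1 were among the genes with the lowest ratio of spheroid to monoculture, and genes of known related function were placed beside them. The ratio of spheroid to monoculture is therefore part of the choice, and it is given below as a description. Other comparisons with the spheroid or the monoculture reuse a library of that ratio, as do counts of the lowest library. They are descriptions as well. All 43 symbols were found among the 24527 gene symbols of the count table, and all 43 averaged at least 1 CPM, the unit given below.

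B16F10 mouse melanoma cells were sequenced from 4 conditions, and each condition is represented by 1 library labelled as wild type (WT). The cultures were a monolayer of B16F10 alone, labelled as control and called monoculture here, a flat co-culture with NIH/3T3 mouse fibroblasts, and spheroids grown with NIH/3T3 cells. The methods name a red fluorescent NIH/3T3 line for the spheroids and do not say so of the flat co-culture. The methods describe a B16F10 line carrying turboGFP (Linterna), from which GFP-positive living cells were sorted by flow cytometry. The fourth library came from tumors that the line formed in female C57BL/6 mice about a year old. The methods describe sorted tumor cells, whereas the label of the tumor library describes snap-frozen material. B16F10 stocks were kept in RPMI and NIH/3T3 stocks in DMEM, and the mixed spheroids of the study were seeded in DMEM with more NIH/3T3 than B16F10 cells. The methods do not restate the medium for the sorted cultures, nor the day of sorting. Medium, the fibroblast line, fibroblast contact and spheroid growth cannot be told apart. The methods give n = 3 beside the RNA extraction, without saying what was counted. With 1 library a condition no difference has a replicate check, no p-value is given, and the intervals below cover counting error only.

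Ribosome production starts in the nucleolus, where RNA polymerase I transcribes the long precursor of the ribosomal RNAs. Small nucleolar ribonucleoproteins (snoRNPs) modify this precursor, and a large assembly called the small subunit processome folds and cuts it while ribosomal proteins are added. The precursor of the large subunit is assembled in parallel by helicases, GTPases and scaffold proteins and is then exported to the cytoplasm. Growing and dividing cells, among them melanoma cells, run this pathway at high rates. The libraries were made from poly(A)-selected RNA, so they measured the messenger RNAs of these proteins and not the ribosomal RNA itself.

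The libraries held 118896900 to 150028663 counted reads. Counts were expressed as reads in every 1000000 after TMM scaling (CPM), with factors of 0.908 for the spheroid, 0.963 for the co-culture, 0.984 for the monoculture and 1.16 for the tumor. A count of 3 reads, the limit that a count of 0 allows, equalled 0.0185 to 0.0262 CPM, and no library had fewer than 502 reads on any of the 43 genes. Melanocyte markers (8 genes) summed to between 11420 (spheroid) and 20122 CPM (tumor), and none of them was at 0. Fibroblast markers (9 genes) summed to 17.6 CPM in the monoculture, 36.5 CPM in the spheroid, 679 CPM in the co-culture and 2728 CPM in the tumor. Myeloid markers (12 genes) summed to 11.1 to 30.0 CPM in the cultures and 2292 CPM in the tumor, and skeletal muscle markers (5 genes) to 3.29 to 12.4 CPM and 4599 CPM. Endothelial markers (10 genes) ran from 27.8 CPM in the monoculture to 350 CPM in the tumor, and lymphoid markers (8 genes) from 0.0611 CPM in the co-culture to 8.72 CPM in the tumor. Myh4, Cd14 and Fcgr1 had no read in the monoculture, while all fibroblast, endothelial and melanocyte markers had reads in all 4 libraries. In bulk RNA, fewer cells of a type and less RNA per cell cannot be told apart, and the part of other cells in the values below was not tested.

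Ribosome biogenesis genes were lowest, as a group, in the spheroid. The 43 genes took 0.223% of all counted reads in the spheroid (exact binomial interval 0.222 to 0.224), 0.491% in the co-culture (0.490 to 0.493), 0.567% in the monoculture (0.566 to 0.568) and 0.620% in the tumor (0.619 to 0.622). After TMM scaling they summed to 2459 CPM in the spheroid, 5104 CPM in the co-culture, 5763 CPM in the monoculture and 5335 CPM in the tumor. The order of tumor and monoculture thus depended on the scaling, and the spheroid was lowest both ways. Their median level was 83.2 CPM in the monoculture, 71.1 CPM in the co-culture, 71.5 CPM in the tumor and 34.0 CPM in the spheroid. The spheroid was the lowest of the 4 libraries for 30 genes and the tumor for the other 13, while these shares over all genes tested were 30.8% and 39.6%. The highest library was the monoculture for 17 genes (18.5% of all genes tested), the co-culture for 14 (15.8%) and the tumor for 12 (31.0%). The spheroid was the highest for 0 of the 43 genes, against 34.7% of all genes tested.

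**Figure D1:**
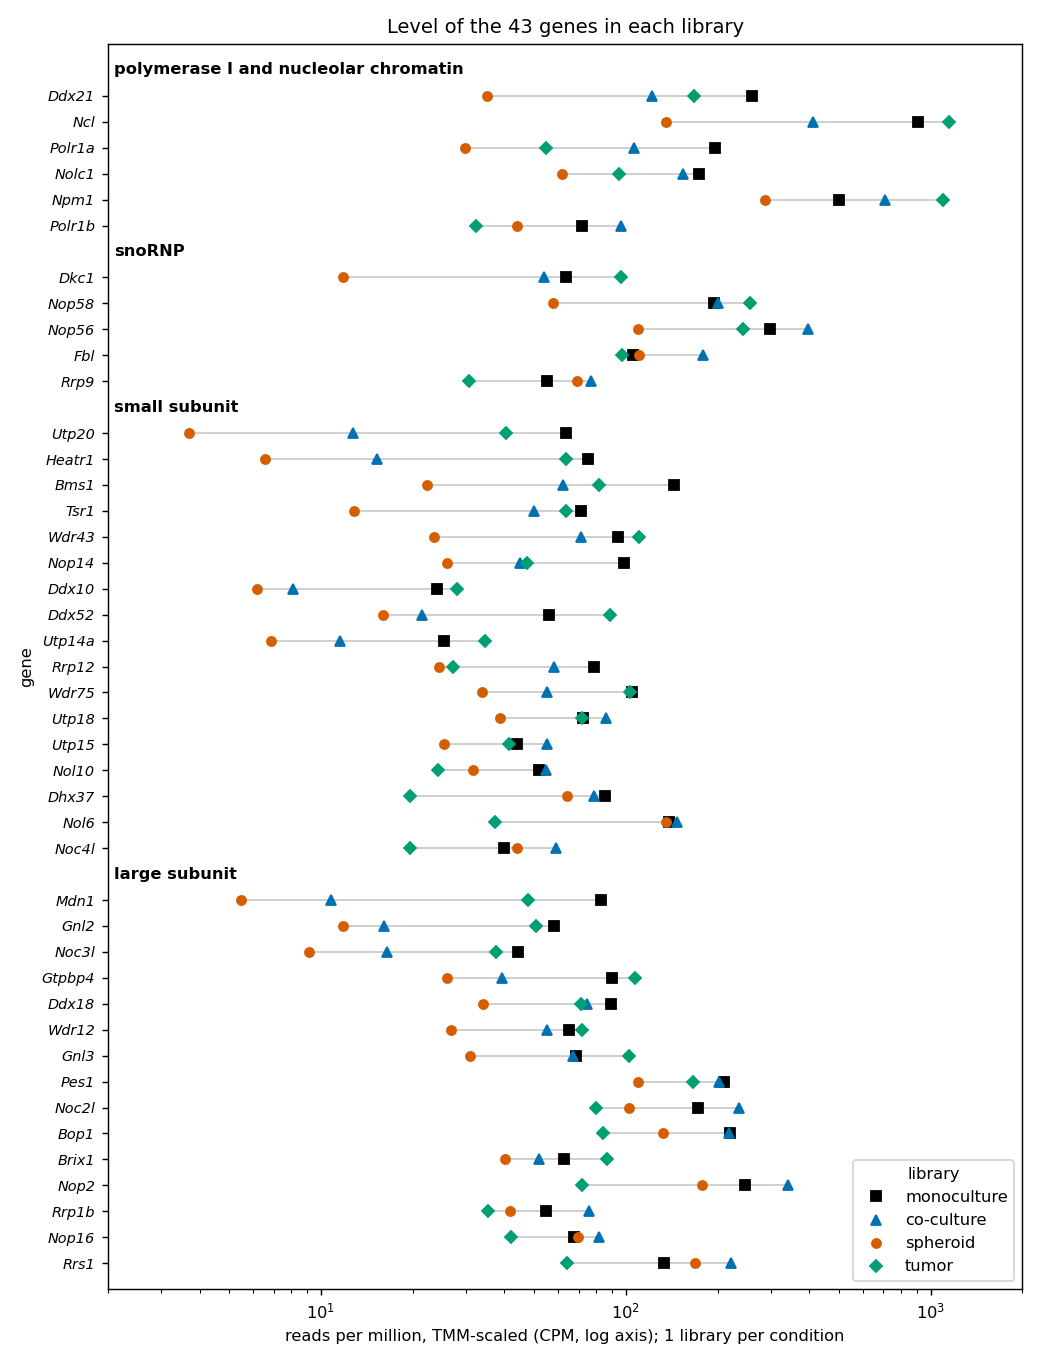
Level of each of the 43 genes in the 4 libraries, in CPM on a log axis, grouped by role and ordered within a role by the ratio of spheroid to monoculture. Each point is 1 library, and the grey line joins the lowest and the highest. The spheroid is the lowest point for 30 genes, and Utp20 spans the range from 3.69 to 63.7 CPM.

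Across the 43 genes, the median log2 ratio of spheroid to monoculture, with 1 CPM added to each value, was -1.44, against 0.05 over the 12728 genes tested. In all, 38 genes lay below 0, and 25 genes were more than 2-fold lower in the spheroid (58.1%), where the background share over all genes was 17.9%. None was more than 2-fold higher, where the background share was 11.2%. Ratios ran from -3.79 for Utp20 to 0.34 for Rrs1. Among 9588 genes that averaged 10 CPM or more, ranked from the lowest ratio, Utp20 was at place 2, Mdn1 at place 3 and Heatr1 at place 8. Ddx21 was at place 50, Ncl at place 80 and Polr1a at place 95. The lowest 10% of the ranking held 20 of the 43 genes. The gene at place 1 was Abca1, a cholesterol exporter, with 65.5 CPM in the monoculture and 3.19 CPM in the spheroid.

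The promoters of the 43 genes were also searched for short sequences. The RefSeq promoter table (GRCm38.p6, 250 bases before to 50 after the start) held 40 promoters of 36 genes. Bop1, Fbl, Gnl2, Nol6, Npm1, Rrp12 and Rrs1 are named only. The E-box CACGTG, a palindrome that Myc and related factors can bind, stood in 7 of the 40 promoters (17.5%), against 7.15% of all 32851 promoters and 9.82% of the 12591 promoters of tested genes. The genes were Mdn1, Nop2, Pes1, Tsr1, Utp18, Utp20 and Wdr43, whose log2 ratios of spheroid to monoculture lay between -3.79 (Utp20) and -0.46 (Nop2). The windows are shown because they include Utp20 and Mdn1, with the E-box in capitals, 5′ to 3′ on the strand of the gene.
Utp20: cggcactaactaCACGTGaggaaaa
Mdn1: gaattccttcacCACGTGtgtgtc
Tsr1: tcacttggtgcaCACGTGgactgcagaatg
Wdr43: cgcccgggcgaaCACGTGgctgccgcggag
Pes1: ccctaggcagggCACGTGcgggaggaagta
Utp18: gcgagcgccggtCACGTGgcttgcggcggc
Nop2: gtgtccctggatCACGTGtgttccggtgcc

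The window of Utp20 is chr10:88826765-88826789 on the minus strand, and its E-box begins at base 38, with the start site as base 1. In Mdn1 (chr4:32657145-32657168, plus strand) it begins at base 39. The other positions are base 25 in Tsr1 (chr11:74898092-74898121, plus strand), base 18 in Wdr43 (chr17:71616220-71616249, plus strand) and base 3 in Pes1 (chr11:3963965-3963994, plus strand). In Utp18 (chr11:93885769-93885798, minus strand) the E-box begins 20 bases before the start and in Nop2 (chr6:125131811-125131840, plus strand) 60 bases before it. A letter match is a description and does not show binding.

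The motif CCGGAAG, in the form that ETS-type factors can bind, was searched on both strands and stood in 13 of the 40 promoters (32.5%), against 8.86% of all promoters and 17.1% of those of tested genes. It was found in 12 genes: Bms1, Brix1, Ddx10, Dhx37, Heatr1, Noc2l, Noc3l, Nol10, Nolc1, Nop2, Tsr1 and Utp18. Overlapping promoters of Noc2l hold the same site and were counted separately. The motif AAGATGG, in the form that YY1 can bind, stood in 1 promoter (2.50%), that of Tsr1, against 6.34% and 6.89%. Nop2, Tsr1 and Utp18 held both CACGTG and CCGGAAG. The 250 bases before the start are printed for the 3 genes with the lowest ratios, with CCGGAAG in capitals where it occurs.
Utp20: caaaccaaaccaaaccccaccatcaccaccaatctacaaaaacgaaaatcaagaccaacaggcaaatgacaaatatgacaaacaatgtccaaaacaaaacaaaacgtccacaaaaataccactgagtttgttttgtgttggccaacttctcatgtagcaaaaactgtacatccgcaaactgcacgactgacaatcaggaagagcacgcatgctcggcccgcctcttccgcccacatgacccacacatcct
Mdn1: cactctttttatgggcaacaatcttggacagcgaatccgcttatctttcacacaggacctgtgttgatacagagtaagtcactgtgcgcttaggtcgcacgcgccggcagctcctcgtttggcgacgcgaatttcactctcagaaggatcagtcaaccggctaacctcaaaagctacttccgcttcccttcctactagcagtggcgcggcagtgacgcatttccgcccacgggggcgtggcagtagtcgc
Heatr1: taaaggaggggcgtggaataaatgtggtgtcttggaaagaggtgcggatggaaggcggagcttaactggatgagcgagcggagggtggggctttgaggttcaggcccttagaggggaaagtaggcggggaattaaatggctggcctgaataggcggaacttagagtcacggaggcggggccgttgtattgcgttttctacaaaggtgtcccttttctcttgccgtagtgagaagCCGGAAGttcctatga

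These stretches are chr10:88826815-88827064 on the minus strand for Utp20, chr4:32656869-32657118 on the plus strand for Mdn1 and chr13:12395125-12395374 on the plus strand for Heatr1. Their GC contents were 44.8%, 55.2% and 53.6%, and they held 8, 20 and 13 CG pairs. The upstream stretch of Heatr1 holds CCGGAAG close to the start, and those of Utp20 and Mdn1 do not hold it.

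Genes for RNA polymerase I and nucleolar chromatin (6 genes) lay at a median log2 ratio of spheroid to monoculture of -2.08. Of the 6, 4 were more than 2-fold lower (66.7%, background 17.9%). Ddx21, an RNA helicase that links RNA polymerase I transcription with the processing of the precursor, had 259 CPM in the monoculture, 122 CPM in the co-culture, 167 CPM in the tumor and 35.2 CPM in the spheroid. The spheroid level was 7.35-fold lower than the monoculture, a log2 ratio of -2.88 (interval -2.92 to -2.83). Ncl encodes nucleolin, an abundant RNA-binding protein of the nucleolus, and had 910 CPM in the monoculture, 411 CPM in the co-culture, 1146 CPM in the tumor and 136 CPM in the spheroid. The spheroid was thus 6.71-fold below the monoculture, and the co-culture 2.22-fold below it, while the tumor was 1.26-fold above.

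The 2 large catalytic subunits of RNA polymerase I differed from each other. Polr1a had 196 CPM in the monoculture, 106 CPM in the co-culture, 54.9 CPM in the tumor and 29.7 CPM in the spheroid. Polr1b had 72.1, 96.3, 32.4 and 43.9 CPM in the same order. Polr1a was 6.59-fold lower in the spheroid than in the monoculture, and Polr1b 1.64-fold lower, although both encode parts of 1 enzyme. The co-culture lay below the monoculture for Polr1a (log2 ratio -0.88, interval -0.91 to -0.85) and above it for Polr1b (0.42, interval 0.38 to 0.46). Npm1, which encodes nucleophosmin, a chaperone of the nucleolus, was 1.75-fold lower in the spheroid and 2.18-fold higher in the tumor than in the monoculture. Npm1 has processed copies elsewhere in the genome that can share reads, so its counts are uncertain. Nolc1, a chaperone of snoRNPs, was 2.82-fold lower in the spheroid.

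Genes of the snoRNPs (5 genes) lay at a median of -1.44 on this scale. Of the 5, 3 were more than 2-fold lower in the spheroid (60%, background 17.9%). Dkc1 encodes dyskerin, the pseudouridine synthase of the box H/ACA snoRNPs. It had 63.5 CPM in the monoculture, 53.8 CPM in the co-culture, 96.6 CPM in the tumor and 11.8 CPM in the spheroid, and the spheroid was 5.38-fold below the monoculture and 8.19-fold below the tumor. The box C/D snoRNPs, which guide methylation of ribosomal RNA, share the core proteins Fbl, Nop56 and Nop58. Nop56 had 298 CPM in the monoculture, 395 CPM in the co-culture, 242 CPM in the tumor and 109 CPM in the spheroid. Nop58 had 195, 200, 256 and 57.9 CPM in the same order, and Fbl, the methyltransferase, had 106, 180, 97.4 and 110 CPM. The scaffold genes Nop56 and Nop58 were therefore 2.72-fold and 3.37-fold lower in the spheroid than in the monoculture, whereas Fbl had a log2 ratio of 0.06 (interval 0.03 to 0.10). Rrp9, a protein of the snoRNP that starts small subunit processing, had 55.1 CPM in the monoculture, 77.0 CPM in the co-culture, 30.6 CPM in the tumor and 69.2 CPM in the spheroid. It was the highest of this group in the ratio of spheroid to monoculture, at 0.33 (interval 0.29 to 0.37). With the correction for GC content and length described below, Rrp9 was at -0.41 and Fbl at -0.56. Nop56 was then at -1.54 and Nop58 at -0.72, so that Nop58 lay close to Fbl.

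Genes of the small subunit pathway (17 genes) lay at a median of -1.75. Of the 17, 11 were more than 2-fold lower in the spheroid (64.7%, background 17.9%). Utp20, a scaffold protein of the small subunit processome, had 63.7 CPM in the monoculture (9080 reads), 12.8 CPM in the co-culture, 40.4 CPM in the tumor and 3.69 CPM in the spheroid (502 reads). The spheroid was 17.3-fold below the monoculture, a log2 ratio of -4.11 with nothing added (interval -4.24 to -3.98), and 11.0-fold below the tumor. The co-culture was also 4.99-fold below the monoculture, so that the 3 cultures stood in the order spheroid, co-culture, monoculture. Heatr1, which joins the early processome and also acts in transcription of the precursor, had 75.4 CPM in the monoculture, 15.3 CPM in the co-culture, 63.5 CPM in the tumor and 6.54 CPM in the spheroid, and the spheroid was 11.5-fold below the monoculture. Its partners in the early processome were less far apart. Wdr43 had a log2 ratio of spheroid to monoculture of -2.01 (interval -2.06 to -1.95), Wdr75 of -1.64 (-1.69 to -1.59) and Utp15 of -0.80 (-0.86 to -0.74).

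Of the other small subunit genes, Bms1, a GTPase, was 6.49-fold lower in the spheroid than in the monoculture and Tsr1, a later acting factor, 5.58-fold lower. A stretch of 32.3% of the exon bases of Tsr1 overlaps Srr, and the strand setting of the counting is not stated, so that reads of the 2 genes may not be separated. Nop14 was 3.80-fold lower and its binding partner Noc4l 1.11-fold higher. The helicase genes Ddx10, Ddx52 and Dhx37 were 3.89-fold, 3.52-fold and 1.32-fold lower. Utp14a was 3.71-fold lower, Rrp12, which helps to export subunit precursors, 3.21-fold lower, Utp18 1.88-fold lower and Nol10 1.64-fold lower. Nol6, a subunit of the processome, had 138 CPM in the monoculture, 148 CPM in the co-culture, 37.1 CPM in the tumor and 136 CPM in the spheroid. The 3 cultures lay close together for Nol6, and the tumor was 3.73-fold below the monoculture. Noc4l had 39.8, 58.9, 19.6 and 44.0 CPM in the monoculture, co-culture, tumor and spheroid, and the tumor was again the lowest library.

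Genes of the large subunit pathway (15 genes) lay at a median of -0.93. Of the 15, 7 were more than 2-fold lower in the spheroid (46.7%, background 17.9%). Mdn1 encodes a very large ATPase that strips assembly factors from the precursor of the large subunit. It had 83.2 CPM in the monoculture (11853 reads), 10.8 CPM in the co-culture, 47.7 CPM in the tumor and 5.49 CPM in the spheroid (747 reads). The spheroid was 15.2-fold below the monoculture, a log2 ratio of -3.92 (interval -4.03 to -3.82), and the co-culture 7.69-fold below it. The GTPase genes followed: Gnl2 was 4.91-fold lower in the spheroid, Gtpbp4 3.46-fold and Gnl3, which encodes nucleostemin, 2.22-fold. Noc3l was 4.85-fold lower and Noc2l, a relative of it, 1.69-fold lower, although 20.9% of the exon bases of Noc2l overlap Samd11. With the correction for GC content and length described below, Noc3l was at -1.35 and Noc2l at -1.41.

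Pes1, Bop1 and Wdr12 encode a stable complex of large subunit assembly, and their values differed. Pes1 had 210 CPM in the monoculture and 110 CPM in the spheroid, Bop1 221 and 132 CPM, and Wdr12 64.9 and 26.7 CPM. The spheroid was 1.91-fold, 1.67-fold and 2.43-fold below the monoculture. With the correction described below, the log2 ratios were -0.84, -1.35 and -0.23, and the order of the genes was reversed. In the tumor, Bop1 was 2.61-fold lower than in the monoculture and Pes1 1.26-fold lower, and Wdr12 had a log2 ratio of 0.14 (interval 0.10 to 0.18), or -0.19 after correction. Nop2, an RNA methyltransferase, had 245 CPM in the monoculture, 342 CPM in the co-culture, 71.6 CPM in the tumor and 178 CPM in the spheroid. Rrs1, which helps to bring the smallest ribosomal RNA into the precursor, had 133, 221, 64.3 and 168 CPM in the same order. For both genes the co-culture was the highest library and the tumor the lowest. Rrs1 and Nop16, with log2 ratios of spheroid to monoculture of 0.34 (interval 0.31 to 0.37) and 0.04 (-0.00 to 0.08), were the members of this group above 0. With the correction described below they were at -0.11 and -0.07, and Noc4l was at -0.31. The helicase gene Ddx18 was 2.62-fold lower, Brix1 1.56-fold lower and Rrp1b 1.32-fold lower.

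**Figure D2:**
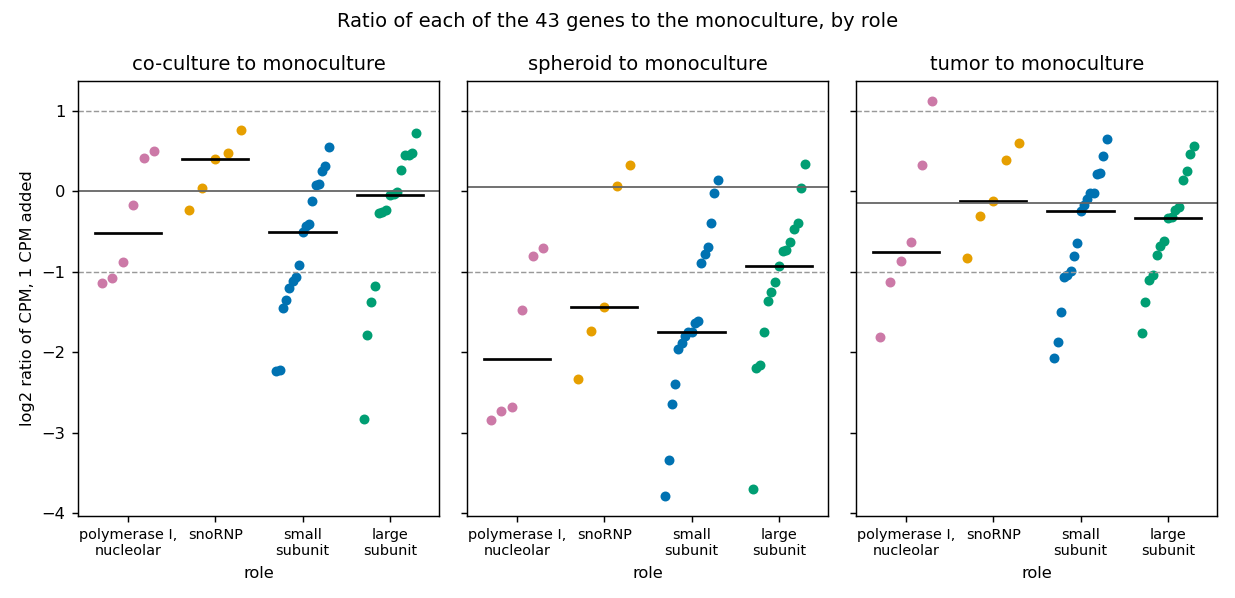
Log2 ratio of each gene to the monoculture, with 1 CPM added, in the co-culture, the spheroid and the tumor, by role. Points are genes, short black lines the median of a role, the grey line the median of all genes tested, and dashed lines 2-fold. In the spheroid, the role medians lie at -2.08, -1.44, -1.75 and -0.93.

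In the co-culture, some of these genes were lower than in the monoculture. The median log2 ratio of the 43 genes was -0.23, against 0.01 over all genes tested, and 13 genes (30.2%) were more than 2-fold lower, where the background share was 9.51%. These ratios share the monoculture library with those of the spheroid, so the values are given side by side. For Mdn1 the log2 ratio with 1 CPM added was -2.83 in the co-culture and -3.70 in the spheroid, for Utp20 -2.23 and -3.79, and for Gnl2 -1.79 and -2.20. The snoRNP genes lay differently, with a median of 0.41 in the co-culture and -1.44 in the spheroid. Fbl had the highest ratio of co-culture to monoculture, 0.76, and 16 of the 43 genes lay above 0. None of the 13 genes past 2-fold belonged to the snoRNP group, and 7 of them belonged to the small subunit group.

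Between the cultures grown with fibroblasts, all 43 genes were lower in the spheroid than in the co-culture. The spheroid library took part in the choice of the genes, so this is no separate support. The median log2 ratio was -0.94, with a range from -2.10 (Dkc1) to -0.12 (Nol6), against -0.01 over all genes tested. A total of 21 genes (48.8%) were more than 2-fold lower, where the background share was 8.46%. All 6 polymerase I and nucleolar chromatin genes were among them, with ratios from -1.80 (Polr1a) to -1.11 (Polr1b). Proliferation genes lay on the same side: the 12 genes had a median of -1.28, and 9 were more than 2-fold lower. Fibroblast markers, too, were lower in the spheroid (36.5 and 679 CPM in sum), and their part in the ratio was not tested.

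In the tumor, the 43 genes spread to both sides of the monoculture. The median log2 ratio was -0.31, against -0.14 over all genes tested. In this comparison 11 genes (25.6%) were more than 2-fold lower, where the background share was 18.2%, and 1 gene, Npm1, was more than 2-fold higher, where it was 14.8%. The 11 genes became 6 when libraries were scaled by total counts. Dhx37 was the lowest at -2.07, followed by Nol6 at -1.87, Polr1a at -1.82 and Nop2 at -1.76, whereas Ddx52, Dkc1 and Gnl3 had ratios of 0.65, 0.60 and 0.57. The tumor library also held the myeloid, fibroblast and muscle markers given above, and their part in these ratios was not tested.

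Set against the tumor, the spheroid had a median log2 ratio of -1.09 over the 43 genes, against 0.08 over all genes tested. In the spheroid 23 genes (53.5%) were more than 2-fold lower than in the tumor, where the background share was 27.6%, and 6 genes (14.0%) were more than 2-fold higher, where it was 26.8%. The lowest ratios were those of Utp20 (-3.14), Heatr1 (-3.10) and Ncl (-3.07), and the highest were those of Nol6 (1.84), Dhx37 (1.67) and Rrs1 (1.37). With the correction for GC content and length, 0 genes were more than 2-fold higher (background 16.4%), and Nol6 was at 0.35, Dhx37 at 0.17 and Rrs1 at 0.55. In the co-culture the median ratio to the tumor was -0.08, with 10 genes more than 2-fold lower (23.3%, background 20.9%) and 12 more than 2-fold higher (27.9%, background 18.8%). These 2 comparisons share the tumor library, and the spheroid library took part in the choice of the genes.

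The other genes of the pathway were taken from lists of known assembly factors. Of 89 such genes outside the 43, 32 (36.0%) were more than 2-fold lower in the spheroid than in the monoculture and 2 (2.25%) were more than 2-fold higher, with a median of -0.51. The shares over all genes tested were 17.9% lower and 11.2% higher. After the correction for GC content and length, 30 of the 89 (33.7%, background 11.0%) were more than 2-fold lower. With the coding sequence 19 were (21.3%, background 7.76%). Among 25 other small subunit genes 10 were lower and 1 was higher, and among 39 other large subunit genes 17 were lower. Pdcd11, which encodes a scaffold protein of the processome, had 130 CPM in the monoculture and 18.1 CPM in the spheroid, and Ftsj3, an RNA methyltransferase, 173 and 21.9 CPM. Among 14 other polymerase I genes 4 were lower (28.6%) and 1, Znrd1, was higher (7.14%). Among 11 other snoRNP genes 1, Ruvbl1, was lower (9.09%), which is below the share over all genes. The exosome, which trims the precursor, had 14 genes with a median of 0.04, of which 4 were lower (28.6%). The median was -0.55 after the correction for GC content and length and -0.44 with the coding sequence. In the co-culture 8 of the 89 genes were lower (8.99%, background 9.51%), and the median was 0.12.

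Genes of the cytoplasmic ribosomal proteins had medians above 0. Of 76 genes, 75 were tested, and their median log2 ratio to the monoculture was 0.65 in the spheroid, 0.75 in the co-culture and 0.60 in the tumor. In the spheroid 7 of the 75 were more than 2-fold higher (9.33%, background 11.2%) and 0 were more than 2-fold lower (background 17.9%). Rpl13a, which had the most reads, had 1924 CPM in the monoculture and 3668 CPM in the spheroid, whereas Rpl4 had 1391 and 796 CPM. Ribosomal protein genes are short and have processed copies that can share reads, so their counts are uncertain. After the correction for GC content and length that is described next, their median was 0.13 in the spheroid. Rpl5 and Rpl11, which join the particle of the smallest ribosomal RNA, had log2 ratios of spheroid to monoculture of -0.01 and 0.48.

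**Figure D3:**
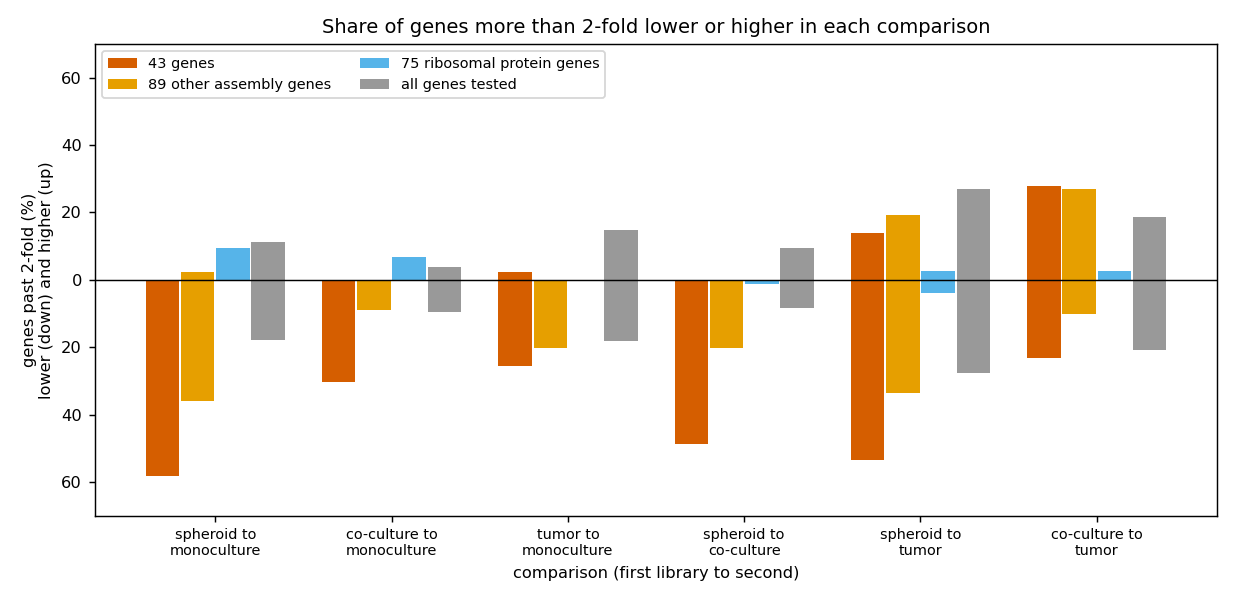
Share of genes more than 2-fold higher (bars up) and lower (bars down) in each comparison, in percent, for the 43 genes, 89 other assembly genes, 75 ribosomal protein genes and all genes tested. In the spheroid against the monoculture, 58.1% of the 43 genes and 36.0% of the other assembly genes are more than 2-fold lower, against 17.9% of all genes.

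Proliferation genes differed between the same libraries. Against the monoculture, the median of the 12 log2 ratios was -1.16 in the spheroid, with 7 more than 2-fold lower (58.3%, background 17.9%). It was 0.68 in the co-culture, where 9 of the 12 lay above 0, and 0.60 in the tumor. Top2a, a topoisomerase of dividing cells, had 168 CPM in the monoculture, 56.5 CPM in the co-culture, 544 CPM in the tumor and 23.5 CPM in the spheroid, and Mki67, a marker of cycling cells, had 87.3, 24.5, 193 and 16.5 CPM. These are the 2 genes of the list that were more than 2-fold lower in the co-culture (16.7%, background 9.51%), and they go against its median there. After the correction for GC content and length, the median was -0.92 in the spheroid, with 5 genes lower (41.7%, background 11.0%). In the co-culture it was 0.66, with 2 genes more than 2-fold higher (background 4.08%). Mki67, at -1.15, was then the only gene of the list more than 2-fold lower there (background 6.80%). The part of the growth rate in the ratios of the 43 genes was not tested.

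Ratios of all genes followed the base composition and the length of their transcripts, and those of the 43 genes did as well. For the spheroid against the monoculture, the median of all genes ran from -0.48 in the class of lowest GC content to 0.70 in the class of highest, and from 0.58 for the shortest transcripts to -0.86 for the longest. Across the 43 genes, Spearman's correlation of this ratio was 0.47 with GC content and -0.53 with length, and across 12667 genes it was 0.49 and -0.40. Genes of 1 library share its depth and composition and are not replicates, so no p is given. Of the 43 genes, 27 had a GC content below the median of all genes, 50.3%, and 16 had one above it. The 27 had a median ratio of -1.75, and 21 of them were more than 2-fold lower, against -0.37 and 29.1% of all genes on that side. The 16 had a median of -0.43, and 4 were more than 2-fold lower, against 0.40 and 6.73%.

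In the tumor the order by GC content was the opposite. The ratio of tumor to monoculture had a Spearman correlation with GC content of -0.82 across the 43 genes and -0.39 across all genes tested. Its correlation with length was negative, like that of the spheroid ratio, at -0.09 across the 43 genes and -0.19 across all genes tested. All 16 genes above the median GC content were lower in the tumor than in the monoculture, with a median of -1.07, and 9 of them (56.2%) were more than 2-fold lower. All tested genes on that side had a median of -0.55, and 30.2% were more than 2-fold lower. The 27 genes below the median GC content had a median of -0.02, against 0.16 for all genes there. Dhx37, Nol6, Nop2 and Rrs1, which were among the highest ratios of spheroid to tumor, had GC contents of 56.5%, 57.1%, 54.9% and 54.2%, and Utp20, Heatr1 and Ncl, the lowest, had 46.8%, 47.3% and 42.8%.

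**Figure D4:**
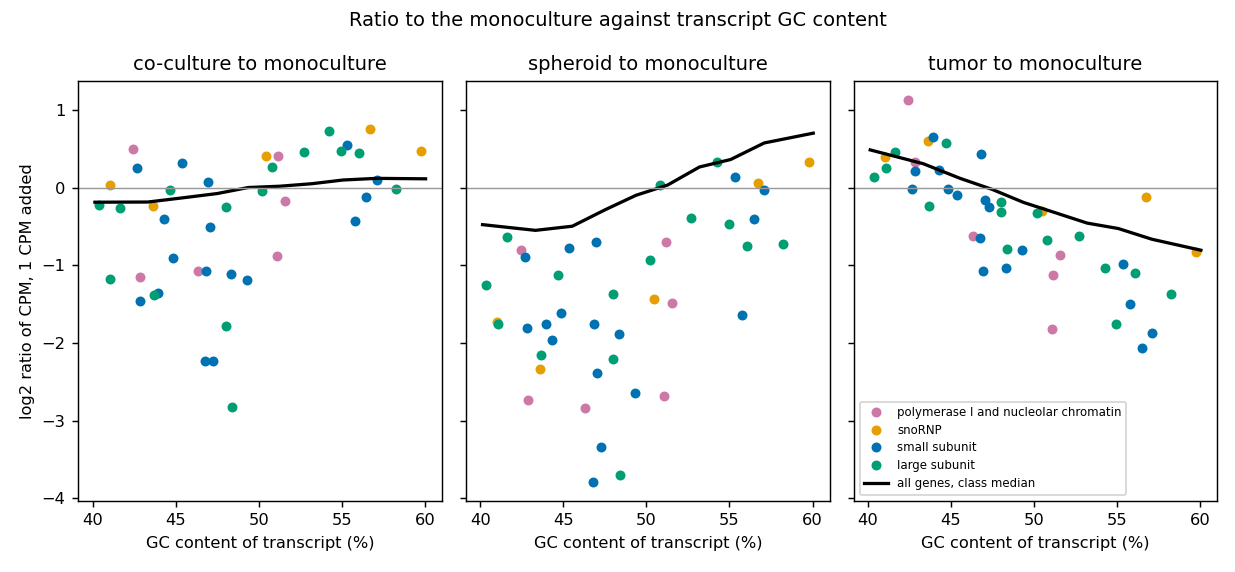
Log2 ratio to the monoculture, with 1 CPM added, against the GC content of the transcript in percent, for the co-culture, the spheroid and the tumor. Points are the 43 genes, coloured by role, and the black line joins the medians of all genes in 10 classes of GC content. In the spheroid 42 of the 43 genes lie below the median of their class, in the co-culture 27 and in the tumor 35.

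From each ratio, the median of all genes in the same class of GC content and length was removed. After this the 43 genes had a median log2 ratio of spheroid to monoculture of -1.15. All 43 genes then lay below 0, and 23 were more than 2-fold lower, where the background share was 11.0%. Utp20 was at -2.53, Mdn1 at -2.44 and Heatr1 at -2.08. The class of longest transcripts ran from 6536 to 123179 bases with a median of 7942.5, and the transcript of Mdn1 has 17959. The value of Mdn1 is therefore not set against genes of its own length. The role medians were -1.51 for polymerase I and nucleolar chromatin, -0.72 for snoRNPs, -1.20 for the small subunit and -0.87 for the large subunit. Classes built on the coding sequence alone, chosen after the data were seen, gave a smaller difference: the median was -0.79, 40 genes lay below 0, and 13 were more than 2-fold lower, where the background share was 7.76%. The role medians in the same order were then -1.31, -0.83, -0.68 and -0.74. The order of the snoRNP, small subunit and large subunit groups thus depended on the correction. For the co-culture against the monoculture the correction left a median of -0.16 and 10 genes past 2-fold (23.3%, background 6.80%). With the coding sequence the median was -0.04 and 2 genes were past 2-fold (4.65%, background 4.82%), a share near the background. For the spheroid against the co-culture the correction for GC content and length left -0.82 and 18 genes (background 6.61%), and all 43 genes were below 0. For the tumor against the monoculture 3 genes, Nol10, Nop14 and Nop2, were more than 2-fold lower (background 5.70%). For the spheroid against the tumor 15 genes were more than 2-fold lower (background 21.3%), with a median of -0.74, and for the co-culture against the tumor 6 (background 19.2%), with a median of 0.17. More than 2-fold higher than the tumor were 4 genes in the co-culture after correction (background 8.44%).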

How the data were processed

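The authors deposited 1 table of raw read counts per gene for 4 libraries of poly(A)-selected RNA, without normalization. Per the labels, Trimmomatic, STAR and featureCounts were used on the build mm10, with refGene symbols per the file header. Their versions and the strand setting are not stated. Columns were assigned to conditions through their labels.

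The 43 genes and all lists were chosen with earlier results of these data known, and several lists repeat those of an earlier analysis. CPM values were computed from the counts with TMM factors of edgeR 4.0.16 (R 4.3.3), and ratios, intervals and ranks with scipy 1.17.1, pandas 2.3.3 and numpy 2.4.6 under Python 3.11.15. Ratios of lists use 1 CPM added to each value, and folds and intervals of single genes use nothing added. CPM shares carry exact Clopper-Pearson intervals and log2 ratios exact binomial ones, at 95%. Genes that averaged 1 CPM or more were tested, and a gene was called past 2-fold. With 1 library a condition, no test across conditions was possible.

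Transcript composition and length came from GENCODE (GRCm38) transcripts and were available for 99.5% of the genes tested and all 43 genes. The median of 10 by 10 classes was removed. The calculation was tested on simulated data. The lists were roles within the 43 genes, other polymerase I, small subunit, large subunit and snoRNP genes (89 in all), exosome, Myc network, p53 target, 5S particle, proliferation, ribosomal protein and cell type marker genes. Genes described in every library are Utp20, Mdn1 and, for each role, those with the lowest and highest ratio of spheroid to monoculture and the most reads. The others were chosen as members of complexes or after their values were seen. Alternatives were upper quartiles, total counts and the size factors of DESeq2 1.42.0, 0.1 or 10 CPM added, other gene filters, and corrections for GC content, length or both.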

Additional observations from a re-analysis of the deposited data

How the results depend on the processing

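Size factors, total counts, upper quartiles, other added values and other corrections gave 63 alternatives each for the medians and the counts of the 43 genes. Of the medians 57 stayed within 1.5-fold, 2 moved further and 4 changed sign. Of the counts 47 stayed within 1.5-fold and 16 did not. Total counts moved all log2 ratios of spheroid to tumor by -0.36, of co-culture to tumor by -0.27, of tumor to monoculture by 0.24 and of spheroid to monoculture by -0.12, and upper quartiles moved those of tumor to monoculture by 0.25.

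The count of 11 genes more than 2-fold lower in the tumor than in the monoculture became 6 with total counts, upper quartiles, the length correction or the GC correction, 7 with 10 CPM added, 3 with the GC and length correction or with the longest transcript, and 5 with the coding sequence. In the spheroid against the co-culture, 10 CPM added gave 12 genes in place of 21. In the spheroid against the tumor, the GC correction and the GC and length correction gave 15 genes in place of 23, and the coding sequence gave 10, with a median of -0.46. In the co-culture against the tumor, the median of -0.08 became 0.17 with the GC and length correction, 0.18 with the GC correction, 0.32 with the coding sequence and 0.10 with the longest transcript, and the count became 6 with the GC and length correction and 2 with the coding sequence. The coding sequence also gave a median of -0.79 and 13 genes for the spheroid against the monoculture. For the co-culture against the monoculture it gave a median of -0.04 and 2 genes (4.65%, background 4.82%). The ratio of Rrp9 in the spheroid to the tumor, 1.15, became -0.20 with the GC and length correction and -0.42 with the GC correction. The cause was not tested. Corrections by coding sequence and longest transcript, TMM factors of the cultures alone and the alternatives for single genes were chosen after the data were seen. With all genes that had a read, the background share of genes more than 2-fold lower was 11.6% for the spheroid, 6.19% for the co-culture and 11.8% for the tumor, each against the monoculture. No paired analysis was possible because there is 1 library a condition, and for the same reason no library could be left out. At this depth counting error is small, and the spread between separate cultures or tumors is unknown.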

Other observations

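Myc, a transcription factor known to drive ribosome biogenesis genes, had 43.3 CPM in the monoculture, 153 CPM in the co-culture, 40.6 CPM in the tumor and 73.7 CPM in the spheroid. Of the 10 genes of its network 9 were tested, and the median log2 ratio to the monoculture was 0.28 in the spheroid, -0.09 in the co-culture and -0.15 in the tumor. After the correction for GC content and length these medians were 0.00, -0.12 and 0.03. With the coding sequence the median was -0.22 in the spheroid and -0.23 in the co-culture. Mnt, which encodes a repressor of the network, had 77.5 CPM in the monoculture, 72.7 CPM in the co-culture, 27.9 CPM in the tumor and 149 CPM in the spheroid. Mga, a large member of the network, had 34.0, 7.27, 57.4 and 7.28 CPM in the same order. Before correction it had the lowest ratio of the network in both cultures with fibroblasts. After the correction for GC content and length, Mga stayed lowest in the co-culture (-1.35), and Mxd3 was lowest in the spheroid (-1.31). With the coding sequence the lowest were Mxd4 in the co-culture (-1.33) and Mxd3 in the spheroid (-1.39).

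Targets of p53, a factor that disturbed ribosome assembly is known to stabilise, lay on both sides of the monoculture in the spheroid. Of 8 genes, 2 (Mdm2 and Ccng1) were more than 2-fold lower than in the monoculture and 2 (Gdf15 and Bbc3) more than 2-fold higher, with a median of 0.25. The shares over all genes tested were 17.9% and 11.2%. After the correction for GC content and length the median was -0.43 and 1 gene was more than 2-fold higher, and with the coding sequence the median was -0.36. Mdm2, which encodes the ligase that degrades p53, had 203 CPM in the monoculture, 101 CPM in the co-culture, 65.8 CPM in the tumor and 47.3 CPM in the spheroid. Cdkn1a, an inhibitor of the cell cycle, had 847, 515, 118 and 813 CPM. In the tumor 6 of the 8 genes were more than 2-fold lower than in the monoculture, with a median of -1.93, and 1, Gdf15, was more than 2-fold higher, with 0.618 CPM in the monoculture and 2.33 CPM in the tumor. The shares over all genes tested were 18.2% lower and 14.8% higher. These tumor values are not corrected for GC content and length, and the part of other cells in them was not tested.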
